A study of Mus musculus with 3 samples.

Results

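Fixed windows around the 3 TET dioxygenase genes, Tet1, Tet2 and Tet3, carried different histone marks in primordial germ cells of mouse embryos at E11.5. H3K4me3 was called in all 3 windows, in 11 regions for Tet1, 2 for Tet2 and 3 for Tet3. H3K27me3 was called in the Tet3 window alone, where it covered 81.0% of the sequence. No H3K27me3 region lay in the Tet1 or Tet2 window. Only the Tet3 window had sequence covered by both marks, 3.0 kb in all. Regions described below as at a gene are those in its window. The windows may reach into neighbouring genes, so no region is assigned to a TET gene itself.

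Members were the called regions that shared at least 1 bp with a fixed window around each gene on mouse build mm9. The windows were 62.25 to 62.39 Mb of chromosome 10 for Tet1 (140 kb), 133.11 to 133.22 Mb of chromosome 3 for Tet2 (110 kb) and 83.29 to 83.43 Mb of chromosome 6 for Tet3 (140 kb). They held 20 of the 66659 regions of both lists, namely 16 of 47928 H3K4me3 regions and 4 of 18731 H3K27me3 regions. All 20 lay wholly inside their window. The genes were chosen by name and with the called regions of these lists known, a wide H3K27me3 region on chromosome 6 among them. The windows were thus selected on the same region calls that are reported here, so the values at each gene are a description and none was tested.

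The cells came from embryos of Oct4:GFP transgenic B6 mice crossed to Swiss-Webster females. Gonadal regions of several embryos were pooled at E11.5, and germ cells were sorted by GFP driven by the Oct4 reporter, so that any other GFP-positive cell would be included. Both marks were precipitated from 2 aliquots, of 104000 and 97000 cells, and an input control was taken from the same lysates. The series holds 3 samples, H3K4me3, H3K27me3 and input, each standing for 2 replicates. Each precipitated sample has 1 list of regions, which gives positions without read counts, and nothing was computed from the input. The depth behind each region is therefore unknown, no value has an error between replicates, and a gene without a called region cannot be told apart from a gene with too few reads to call one. The germ cell identity of the sort was not checked against marker genes, because no gene annotation of mm9 was used here.

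TET enzymes oxidise methylated cytosine in DNA, first to hydroxymethylcytosine and then further, which opens a route to an unmethylated base. Germ cells lose most of their DNA methylation around the stage sampled, as they settle in the gonad. Tet1 and Tet2 are the family members best known in embryonic stem cells and germ cells at this stage, whereas Tet3 is best known from the oocyte and the zygote. Tet1 and Tet3 carry a CXXC domain, a zinc finger that binds unmethylated CpG dinucleotides, and Tet2 lacks one. Trimethylation of lysine 4 on histone H3 (H3K4me3) marks CpG-rich and active promoters. Trimethylation of lysine 27 (H3K27me3) is written by Polycomb complexes and is typical of silent developmental genes.

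H3K4me3 is found above all at promoters rich in CpG, so the 250 bases before the transcription start of each gene are shown, 5′ to 3′ on the gene's strand, with CG dinucleotides in capitals. They were matched by symbol for 3 of 3 genes and come from RefSeq on build GRCm38.p6, with 1 start per gene. That is not the build of the called regions, and these positions were not set against them.
Tet1, chr10:62887325-62887574, minus strand: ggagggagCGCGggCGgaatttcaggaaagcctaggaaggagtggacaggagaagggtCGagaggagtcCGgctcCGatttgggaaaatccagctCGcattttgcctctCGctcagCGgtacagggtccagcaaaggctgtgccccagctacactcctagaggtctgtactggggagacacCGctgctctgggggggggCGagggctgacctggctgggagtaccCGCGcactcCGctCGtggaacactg
Tet2, chr3:133544391-133544640, minus strand: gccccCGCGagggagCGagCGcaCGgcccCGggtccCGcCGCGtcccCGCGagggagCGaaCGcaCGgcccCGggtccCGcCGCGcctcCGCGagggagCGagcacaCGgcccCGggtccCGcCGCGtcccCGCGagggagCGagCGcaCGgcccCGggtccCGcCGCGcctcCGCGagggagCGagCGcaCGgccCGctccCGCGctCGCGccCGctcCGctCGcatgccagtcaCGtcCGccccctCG
Tet3, chr6:83441679-83441928, minus strand: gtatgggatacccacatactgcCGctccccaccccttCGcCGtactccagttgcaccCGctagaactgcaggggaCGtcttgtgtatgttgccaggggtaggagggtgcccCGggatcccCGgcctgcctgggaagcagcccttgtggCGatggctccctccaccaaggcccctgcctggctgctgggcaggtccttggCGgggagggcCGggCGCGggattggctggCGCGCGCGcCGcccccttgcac

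The Tet2 promoter was the richest in CG, with 51 dinucleotides and 83.6% G or C. Much of its printed sequence repeats a short unit with small differences, so many of these CG are copies. Of 32851 RefSeq promoter stretches of 250 bases, 0.067% held at least as many CG, and the median stretch held 6 (quartiles 2 and 16). The Tet3 promoter held 17 CG, a number reached by 23.5% of stretches, and 69.6% G or C. The Tet1 promoter held 15 CG, reached by 27.3% of stretches, and 62.8% G or C. The letters CG read the same on both strands, and neighbouring pairs cannot overlap. Whether a called region covers these 250 bases was not examined, because the builds differ. By the order of protein-coding genes in the same assembly, Tet1 lies between Ccar1 and Slc25a16, Tet2 between Ppa2 and Cxxc4, and Tet3 between Bola3 and Dguok. Cxxc4 encodes a CXXC protein thought to share its origin with the DNA-binding part that Tet2 lacks. The windows may reach into these neighbours, so a region in a window is not assigned to the TET gene itself.

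**Figure D1:**
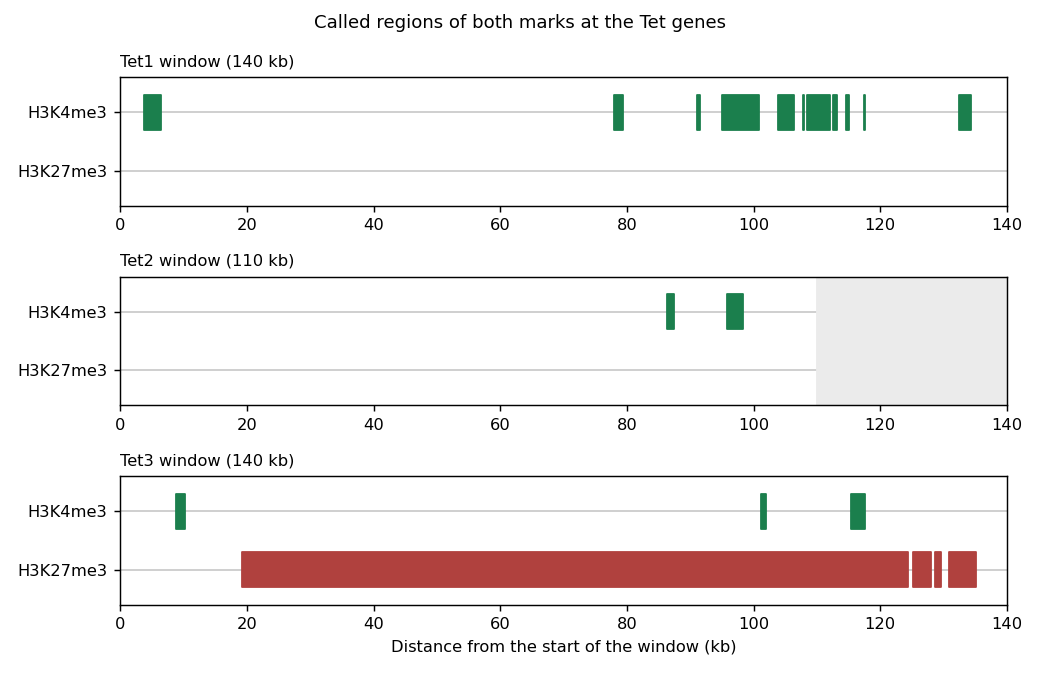
Called regions of H3K4me3 (green) and H3K27me3 (red) in the 3 windows, drawn to scale by distance from the window start in kb; grey shading lies beyond the 110-kb Tet2 window. Tet1 shows 11 H3K4me3 regions and Tet2 shows 2, both without H3K27me3, while H3K27me3 fills 81.0% of the Tet3 window.

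Tet1 had the most H3K4me3. Its 11 regions covered 20.0 kb, or 14.3% of the window. The widest measured 5.8 kb (62345001 to 62350800 on chromosome 10), a width reached by 199 regions of the whole H3K4me3 list, or 0.415%. A region of 3.6 kb followed (62358401 to 62362000), and 2.71% of the list was at least as wide. Regions of 2.6 kb lay on either side of the window's middle (62253801 to 62256400 and 62353801 to 62356400), and one of 2.0 kb lay near its end (62382401 to 62384400). The remaining 6 regions measured 200 to 1400 bp. The median of the 11 was 1400 bp, against 800 bp over the whole list.

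Most H3K4me3 at Tet1 lay in a dense group. With regions less than 5 kb apart taken as a group, a distance chosen after the values were seen, 8 of the 11 regions formed 1 group of 26.6 kb (62341001 to 62367600). H3K4me3 covered 52.6% of the group's length, and the group held 70.0% of the H3K4me3 of the window. The gaps inside the group ran from 400 to 3400 bp, so the calls alternate with short stretches without a call. Over the genome, 0.37% of 34027 such groups held at least 8 regions, and the median group was a single region. The count at Tet1 includes narrow calls of 200 and 400 bp. With only regions wider than 400 bp kept, the whole Tet1 window held 8 H3K4me3 regions instead of 11. With regions less than 2 kb apart grouped, the largest group at Tet1 held 5 regions. Outside the group, 71.6 kb without any H3K4me3 call separated the first region of the window from the second.

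Tet2 carried little H3K4me3 in comparison. Its 2 regions measured 1.0 kb (133196401 to 133197400 on chromosome 3) and 2.6 kb (133205801 to 133208400). Together they covered 3.6 kb, or 3.27% of the window. A width of 1.0 kb was reached by 42.2% of the H3K4me3 list and a width of 2.6 kb by 8.18%. They lay 8400 bp apart toward the end of the window, and the 86.4 kb before them held no region of either mark.

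At Tet3, the share covered by H3K4me3 was close to that at Tet2, and H3K27me3 covered most of the window. The 3 H3K4me3 regions measured 1.4 kb (83298801 to 83300200 on chromosome 6), 0.8 kb (83391201 to 83392000) and 2.2 kb (83405401 to 83407600). They covered 4.4 kb, or 3.14% of the window. The H3K27me3 regions were one of 105.2 kb (83309201 to 83414400) and 3 short ones after it, of 2.8 kb (83415201 to 83418000), 1.0 kb (83418601 to 83419600) and 4.4 kb (83420801 to 83425200). The gaps between the 4 were 800, 600 and 1200 bp, and none of these gaps held H3K4me3. With regions less than 2 kb apart joined, the H3K27me3 at Tet3 became 1 run of 116 kb (83309201 to 83425200). The long region was the 7th widest of the H3K27me3 list and 58.4 times the list's median width of 1800 bp. The 3 short ones were of common size, with 20.7 to 73.7% of the list at least as wide.

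**Figure D2:**
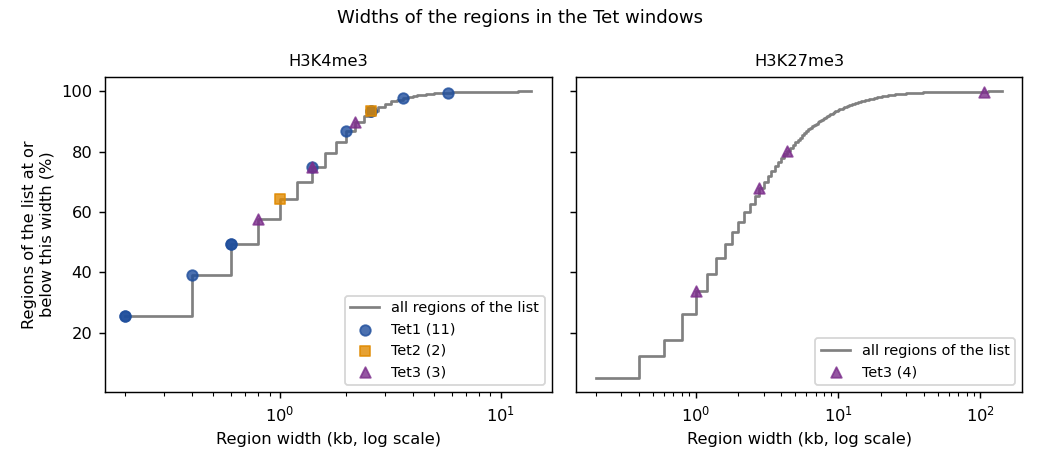
Cumulative widths of all H3K4me3 regions (left) and all H3K27me3 regions (right), in percent of the list at or below each width on a logarithmic axis in kb, with the regions of the Tet windows as points. The 5.8-kb region of Tet1 and the 105.2-kb region of Tet3 sit at the upper ends, while both Tet2 regions lie at 1.0 and 2.6 kb.

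Inside the long H3K27me3 region, the H3K4me3 regions lay toward one end. The first 82.0 kb, or 77.9% of its length, held no H3K4me3. The region of 0.8 kb came next, then 13.4 kb without H3K4me3, the region of 2.2 kb, and a last 6.8 kb without it. Both H3K4me3 regions lay wholly inside H3K27me3. They covered 2.85% of the long region. Of the 35 H3K27me3 regions of at least 50 kb in the list, 24 had a larger share covered by H3K4me3 and 10 a smaller one, with a median of 6.71% (range 0 to 28.4%). By number, 22 of the 35 held more H3K4me3 regions than this one, 6 held as many and 6 held fewer. The H3K4me3 share of the region at Tet3 was thus below the median of wide H3K27me3 regions. Each mark was precipitated on its own from many cells, so a shared position may belong to different cells or chromosomes.

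The remaining H3K4me3 region of Tet3 lay outside the H3K27me3, 9.0 kb before its edge. Over all 3 genes, 2 of 16 H3K4me3 regions (12.5%) overlapped H3K27me3, against 18.8% of the whole H3K4me3 list. For H3K27me3, 1 of 4 regions overlapped H3K4me3, against 37.5% of its list. Regions of 1 window share their surroundings and the numbers are small, so no difference from the whole lists is read from these shares. All of the overlap came from Tet3, with 0 of 11 H3K4me3 regions at Tet1 and 0 of 2 at Tet2.

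The windows were set beside all windows of equal width laid end to end along the autosomes and X. Of 18831 windows of 140 kb, 1.18% were covered by H3K4me3 as much as the Tet1 window, and 4.91% held as many regions or more. The median window was covered to 0.429% and 40.5% held no H3K4me3 at all, sequence without genes or without mappable reads included. The Tet3 window lay above the upper quartile of 2.57% in H3K4me3 coverage, and 21.3% of windows were covered at least as much. For H3K27me3, 20 of the 18831 windows (0.106%) were covered as much as the Tet3 window. The Tet3 window encloses its long H3K27me3 region whole, which raises its coverage relative to windows laid on a grid. Of 23970 windows of 110 kb, 20.8% had at least the H3K4me3 coverage of the Tet2 window.

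Lack of H3K27me3 was common among such windows. H3K27me3 was present in 31.5% of the 140-kb windows and in 27.3% of the 110-kb windows. Both marks were present in 28.9% of the 140-kb windows and in 24.5% of the 110-kb windows. Among windows holding H3K4me3, 51.4% of the 140-kb windows and 55.2% of the 110-kb windows had no H3K27me3. The absence of H3K27me3 at Tet1 and Tet2 was in this respect the more frequent state. Among windows covered by H3K4me3 at least as much as that of Tet1, lack of H3K27me3 was instead the less frequent state. Of these 222 windows, 56 held no H3K27me3.

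**Figure D3:**
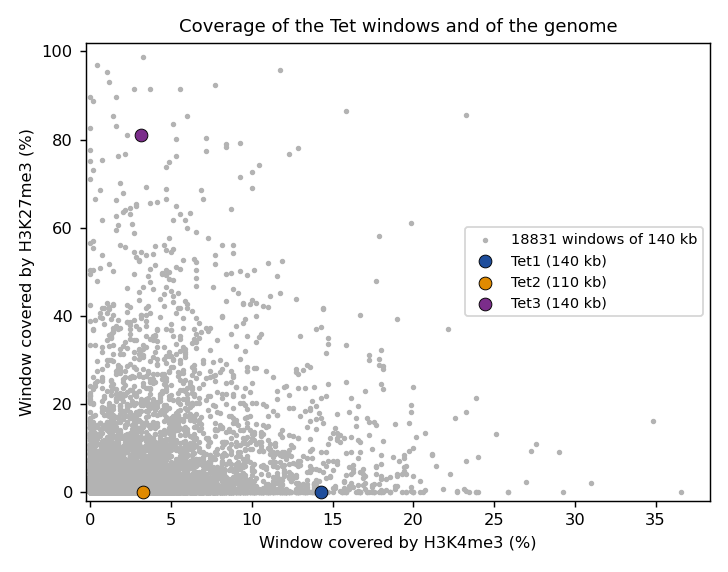
Percent of each window covered by H3K4me3 (horizontal axis) and by H3K27me3 (vertical axis) for 18831 windows of 140 kb along the autosomes and X (grey) and for the windows of Tet1, Tet2 and Tet3. Tet1 lies at 14.3% H3K4me3 and no H3K27me3, Tet2 at 3.27% and none, and Tet3 at 3.14% H3K4me3 and 81.0% H3K27me3.

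The genes also differed in how far the nearest H3K27me3 lay. H3K4me3 regions of Tet1 were 168.8 to 296.8 kb from the nearest H3K27me3 region (median 195.2 kb). Those of Tet2 were 693.4 and 704.4 kb away. Over the whole list the median distance was 46.6 kb (quartiles 5.6 and 147 kb), and 3.49% of H3K4me3 regions were as far from H3K27me3 as the nearer region of Tet2. For the nearest Tet1 region the corresponding share was 22.2%. Among H3K4me3 regions that overlapped no H3K27me3, the median distance was 73.2 kb.

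Tet2 sat in a stretch of 1825.6 kb without any H3K27me3 call, which held 16 H3K4me3 regions. Stretches at least as long held 7.16% of all H3K4me3 regions of the autosomes and X and 27.5% of the sequence. The stretch around Tet1 measured 684.2 kb and held 36 H3K4me3 regions. Stretches at least as long as that of Tet1 held 24.6% of H3K4me3 regions and 54.1% of the sequence. Sequence in stretches of this length was thus common, parts without genes or without mappable reads included. These 889 stretches held 11769 H3K4me3 regions over 1430 Mb, and the 36 around Tet1 were not ranked among them. The calls that bounded the stretches around Tet1 and Tet2 were narrower than the H3K27me3 list's median of 1800 bp, except the one after the Tet2 window. The H3K27me3 region after the Tet1 window measured 400 bp and that before it 1000 bp, and those around the Tet2 window measured 400 and 2200 bp.

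**Figure D4:**
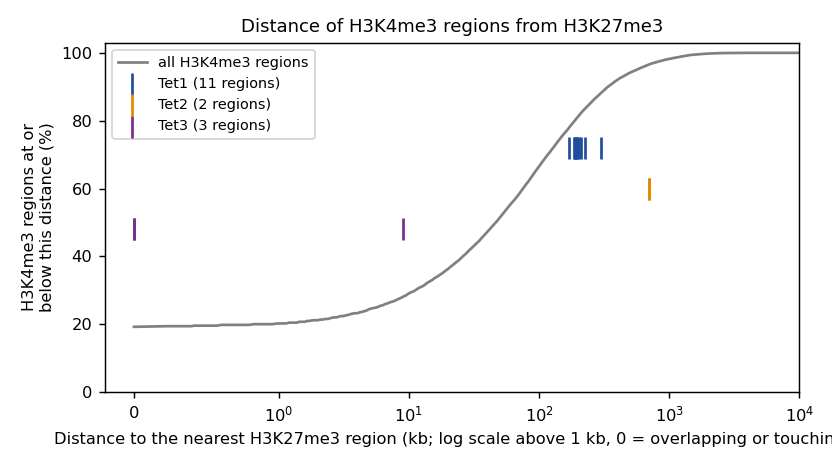
Cumulative percent of all H3K4me3 regions (grey line) by distance to the nearest H3K27me3 region in kb, on an axis logarithmic above 1 kb, with a tick for each H3K4me3 region of the Tet windows at a height that has no meaning. The ticks of 2 Tet3 regions coincide at 0 and the other stands at 9.0 kb, the Tet1 ticks span 168.8 to 296.8 kb, and both Tet2 ticks lie at 693.4 and 704.4 kb.

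No region crossed the edge of a window. Just inside, the last Tet1 region ended 5.6 kb before the window's end, the last Tet2 region 11.6 kb before it and the last H3K27me3 region of Tet3 4.8 kb before it. Just outside, the nearest H3K4me3 region was 19.2 kb beyond the Tet1 window (2.6 kb wide), 22.2 kb beyond the Tet2 window (0.6 kb wide) and 12.8 kb before the Tet3 window (1.8 kb wide). The nearest H3K27me3 region outside the Tet3 window lay 33.2 kb after it and measured 10.8 kb. The nearest outside the Tet1 and Tet2 windows lay 163.2 and 681.8 kb away.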

How the data were processed

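H3K4me3 and H3K27me3 ChIP-seq regions of sorted E11.5 germ cells were analysed. Per the labels' protocols, chromatin was fixed with 0.25% formaldehyde for 10 min, each precipitation used 2.4 µg of antibody, and libraries were amplified for 20 cycles (input 15). Build mm9 and the aligner Bowtie 0.12.7 are named in the submitters' processing notes. The authors deposited 1 list for each mark; the names describe contiguous regions from ChromHMM, which assigns a chromatin state to each bin. Each deposited file gives the chromosome, start, end and name of its regions, with no score, on a 200-bp grid. How ChromHMM was set, whether the input was used and how replicates were combined is not given in the sources used here. As a check of the build, all 21 chromosomes compared had their last region within the mm9 length, and 9 had it past the mm10 length (GenomeInfoDb 1.38.1).

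Regions sharing at least 1 bp with a window were members, and regions sharing 1 bp overlapped. Coordinates count from 1. The rule for naming was every region in the windows and the nearest outside. Genes, windows and comparisons were chosen with earlier results of these data known. With 1 list per mark no test was run. Alternatives were regions wider than 400 bp, regions less than 1 kb apart joined, windows extended by 50 kb, regions wholly inside, overlaps of 400 bp or 50% of the shorter region, windows offset and, chosen after seeing the data, other grouping distances. Other genes of DNA demethylation and marker genes were not analysed here, since they need an mm9 annotation. The functions were tested on simulated data. Python 3.11.15, numpy 2.4.6 and pandas 2.3.3 were used.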

Additional observations from a re-analysis of the deposited data

How the results depend on the processing

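For 25 results, 84 values were recomputed under alternatives: 34 of these could not move, such as a count of 0 under a stricter filter. Of the other 50, 47 stayed within 1.5 times the reported value and 3 moved. These 50 still include values that were fixed in advance. All member regions lay wholly inside their window, so requiring this could change no count. Extending the windows could not reach H3K27me3 at Tet1 or Tet2. The number of values that stayed alike is therefore not a measure of robustness. With windows extended by 50 kb, H3K27me3 at Tet1 and Tet2 stayed at 0 regions. That setting could not have changed it, since the nearest H3K27me3 regions lay 163.2 and 681.8 kb outside these windows. The sequence of Tet3 under both marks stayed at 3.0 kb in the 4 alternatives run for it. Of these, only the longer window could have changed it. The H3K4me3 regions concerned are wider than 400 bp, lie wholly inside H3K27me3 and stand 13.4 kb apart. With windows extended by 50 kb on each side, the H3K4me3 regions of Tet3 numbered 6 instead of 3, since a longer window takes in more regions. With regions less than 1 kb apart joined, the H3K27me3 regions of Tet3 numbered 2 instead of 4, by construction. The H3K4me3 group at Tet1 held 5 regions with a grouping distance of 2 kb, 8 with 10 kb and 10 with 20 kb, settings chosen after seeing the data. Leaving out H3K27me3 regions of 400 bp or less took the median distance at Tet1 from 195.2 to 200.6 kb. No paired analysis was possible because each mark has 1 list, and for the same reason no replicate could be left out. Depth is unknown, so weak enrichment at Tet1 or Tet2 could have gone uncalled.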

Other observations

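In the 50 kb on either side of the windows, H3K27me3 was called near Tet3 and not near Tet1 or Tet2. The absence near Tet1 and Tet2 repeats the distances given above and is not a separate observation. H3K4me3 in these flanks was not most abundant near Tet1. Beyond the Tet3 window, 2 more H3K27me3 regions of 1.4 and 10.8 kb lay within 50 kb after it, and none within 50 kb before it. Neither of them overlapped H3K4me3. No H3K27me3 region lay within 50 kb of the Tet1 or Tet2 window on either side. H3K4me3 was called in 2 regions (2.8 kb in all) after the Tet1 window and 1 region (0.6 kb) after the Tet2 window, and in none before either. At Tet3 it was called in 2 regions (3.0 kb) before the window and 1 region (1.6 kb) after it. All 3 of these lay outside H3K27me3, like the first H3K4me3 region inside the window.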
